A study of Mus musculus with 9 samples.

Results

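Expression of 10 endoplasmic reticulum chaperone and quality control genes was examined in mouse splenic monocytes: Hspa5, Hsp90b1, Hyou1, Pdia4, Pdia6, Sdf2l1, Manf, Creld2, Dnajb9 and Herpud1. The genes were taken by symbol from the deposited tables of 46072 genes, where each symbol had 1 row, and all 10 were measured and tested. The 9 libraries came from female C57BL/6 mice aged 8 to 10 weeks, as 3 biological replicates of each of 3 treatments. The control mice (Con) had water by gavage over 6 days. Van mice received vancomycin by gavage, an antibiotic that acts on the gut microbiome, at 2 mg per mouse per day for 6 days. VanLip mice received the same vancomycin and then L654, a bacterial serine-glycine lipid that is a TLR2 ligand, by retro-orbital administration on days 7, 9 and 11. RNA was taken after 8 days of rest without antibiotic, from monocytes enriched by negative selection and not stimulated in culture. The study's lipid experiments used PBS as the vehicle, but injections are named for the sequenced mice in VanLip alone, so it is not clear whether Con and Van mice were injected.

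Secretory and membrane proteins fold in the endoplasmic reticulum (ER) with the help of chaperones, and unfolded proteins there activate the sensors IRE1, PERK and ATF6. IRE1 splices Xbp1 messenger RNA, ATF6 is cleaved to a transcription factor, and both raise transcription of ER chaperone and degradation genes, whereas PERK slows translation and acts through ATF4 and CHOP (Ddit3). Monocytes carry this machinery for the cytokines, receptors and lysosomal proteins they make.

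Total expected counts lay between 43070361 and 61383806 per library in Con and Van, and between 170503470 and 184720704 in VanLip. The size of 1 read in the counts corresponded to reads of 100 bases in Con and Van and of 150 bases in VanLip, so that depth, and read length as far as the counts show it, cannot be told apart from the group wherever VanLip is compared. The methods describe a single read length, that of Con and Van, so the length in VanLip is inferred from the counts alone and this conflict was not resolved. The monocyte marker Csf1r stood at 527.6 to 642.6 FPKM (fragments per kilobase of transcript, scaled by the mapped fragments of a library) in all libraries. Macrophages express Csf1r too, so its level does not separate them from monocytes. The 9 T and NK cell markers together summed to 7.43 to 16.0 FPKM, most of it Cd4. Markers of other cells were present at the levels given with the chaperone results. In bulk RNA, fewer cells of a type and less RNA per cell cannot be told apart.

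The promoters of several of these genes carry the ER stress response element (ERSE), at which NF-Y contacts CCAAT and ATF6 or XBP1 contacts CCACG. The element was searched on both strands, as CCAAT and CCACG separated by any 9 bases, in RefSeq promoter windows of GRCm38.p6 that run from 250 bases before to 50 bases after each start. A window was matched for 8 of the 10 genes. Hyou1 and Manf were not matched. The element was present in 4 of the 8, namely Hspa5, Hsp90b1, Pdia6 and Creld2, against 0.137% of 27025 genes with a window. Herpud1 held the related ERSE-II, ATTGG and CCACG separated by any 1 base, against 0.0444% of genes. The 10 genes were chosen as ER chaperone genes of this response, so these shares are descriptions and not tests. None of the 8 held the XBP1 element TGACGTGG, which 0.714% of genes hold. Both long elements contain CCAAT and CCACG on 1 strand or the other, and each of those short motifs was in all 8 windows, against 41.1% and 35.5% of genes. The sites run 5′ to 3′ on the strand of the gene, with the element in capitals, and that of Syvn1 is added because it was the 1 gene outside the 10 with an ERSE that was called for Van against Con, a choice made after its values were seen. In the wider pathway Calr, Canx, Ero1lb, Dnajc3 and Derl3 held an ERSE too, and Dnajb11 and Krtcap2 an ERSE-II.
Hspa5: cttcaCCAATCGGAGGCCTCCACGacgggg
Hsp90b1, distal site: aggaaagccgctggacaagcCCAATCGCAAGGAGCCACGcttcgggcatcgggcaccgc
Hsp90b1, proximal site: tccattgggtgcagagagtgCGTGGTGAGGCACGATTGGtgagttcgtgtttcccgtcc
Pdia6: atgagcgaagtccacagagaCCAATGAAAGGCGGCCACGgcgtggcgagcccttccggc
Creld2: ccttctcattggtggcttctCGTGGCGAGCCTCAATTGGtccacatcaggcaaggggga
Herpud1, ERSE-II: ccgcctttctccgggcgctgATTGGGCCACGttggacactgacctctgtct
Syvn1: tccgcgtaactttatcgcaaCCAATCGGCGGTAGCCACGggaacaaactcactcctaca

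The Hspa5 stretch is chr2:34772020-34772049 on the plus strand, with its element at positions -65 to -47 from the start. The Hsp90b1 stretches are chr10:86705618-86705676 and chr10:86705513-86705571 on the minus strand, with elements at -212 to -194 and at -107 to -89. Pdia6 lies at chr12:17266471-17266529 on the plus strand (element at -98 to -80) and Creld2 at chr15:88819500-88819558 on the plus strand (-126 to -108). Herpud1 lies at chr8:94386357-94386407 on the plus strand (-52 to -42) and Syvn1 at chr19:6046512-6046570 on the plus strand (-44 to -26). All are upstream of the RefSeq start, and only the Hspa5 stretch overlaps an exon of the GENCODE annotation. The elements of the proximal Hsp90b1 site and Creld2 read CGTGG first because they lie on the opposite strand. A match describes the letters and not the binding of a factor.

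Levels of the 10 genes, in FPKM and therefore per length, spanned more than an order of magnitude in these monocytes. Hspa5, which encodes BiP, the main Hsp70 chaperone of the ER and a brake on all of the sensors, was highest at 184 ± 26 FPKM (SD, n = 9 libraries). Hsp90b1, which encodes the ER Hsp90 GRP94 that folds integrins and Toll-like receptors, followed at 141 ± 21. Hspa5 exceeded Hsp90b1 in 9 of 9 libraries, although their ranges over libraries overlapped. Herpud1 (63.0 ± 9.11) and Pdia6 (57.9 ± 10.1) overlapped, with Herpud1 the higher in 5 of 9 libraries. Their order differed by group, with 66.0 ± 6.77 against 50.2 ± 3.42 FPKM in Con (SD, n = 3), where Herpud1 was the higher in all 3 libraries, and 52.8 ± 4.55 against 55.7 ± 7.90 in VanLip. Dnajb9 (35.3 ± 5.04) was above Sdf2l1 (28.5 ± 5.10) in all 9. Sdf2l1, Hyou1 (24.8 ± 4.62), Manf (22.5 ± 5.27) and Pdia4 (19.9 ± 3.25) had ranges that overlapped from each gene to the next. Sdf2l1 was above Hyou1 in 7 libraries, Hyou1 above Manf in 8 and Manf above Pdia4 in 7. Creld2 was lowest at 12.1 ± 2.38, below Pdia4 in 9 of 9 libraries.

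**Figure D1:**
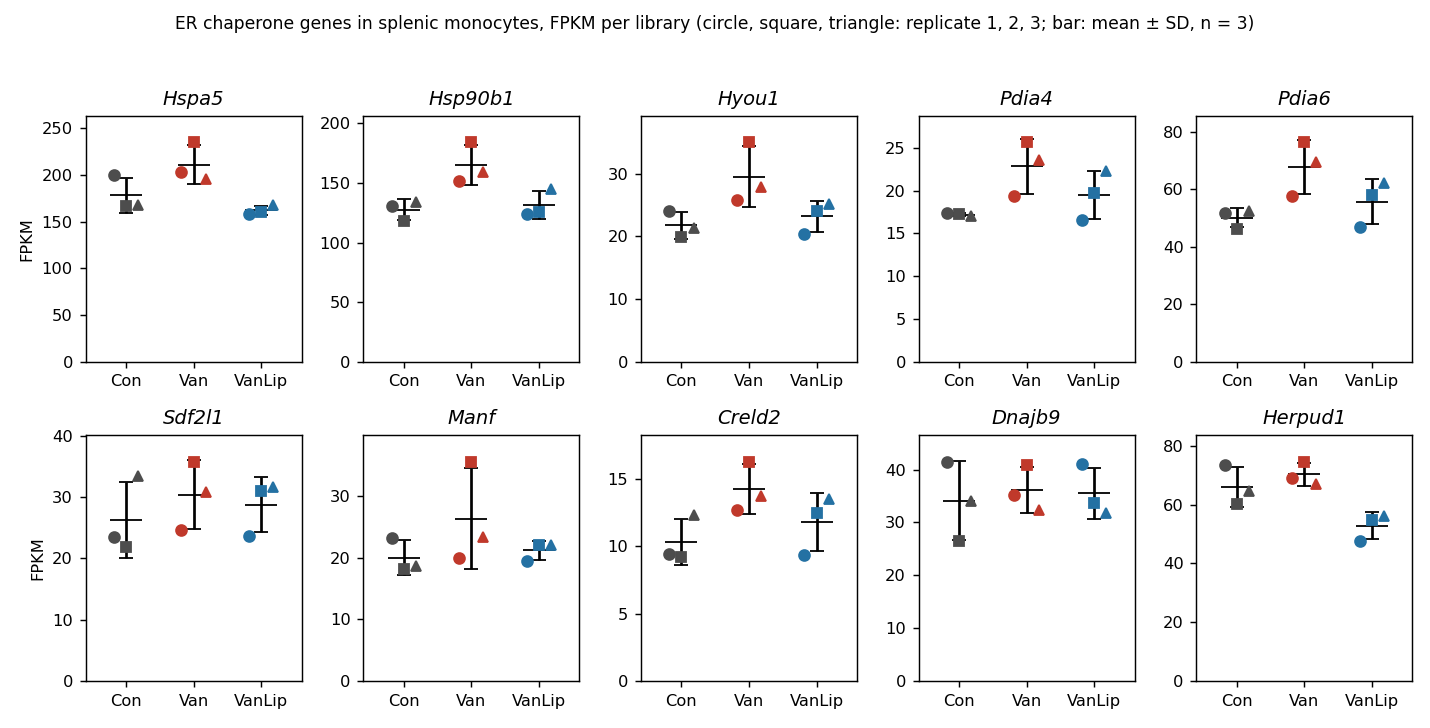
FPKM of each of the 10 genes (y axis, from 0) in the Con, Van and VanLip libraries (x axis), 1 point per library with the shape giving the replicate and the bar the mean ± SD (n = 3). Van replicate 2 is the highest Van library for each gene, and the 3 VanLip libraries of Herpud1, 47.6 to 56.0 FPKM, lie below all others.

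Vancomycin was compared with water to ask which genes differ in monocytes after the antibiotic. Transcripts of 4 of the 10 chaperone genes rose in Van, Hsp90b1, Hyou1, Pdia4 and Pdia6, by 28.3% to 35.1% (DESeq2, adjusted p at or under 0.05). Over all genes, 4.34% were called in either direction and 2.27% were called higher. All 10 fold changes were above 0, with a median log2 fold change of 0.32 against -0.01 over all genes tested. The Van and Con libraries did not overlap, with Van higher, for 5 of the 10 genes, where 12.7% of all genes (mean normalized count 50 or more) did so. edgeR and limma each called 0 of the 10 after adjustment, as against 1.21% and 0.352% of all genes, and DESeq2, edgeR and limma each had 6 at an unadjusted p under 0.05, where 14.9%, 14.7% and 11.6% of all genes were. The count of 4 fell to 0 without Van replicate 2 and to 0 without Con replicate 2, and to 1 without Van replicate 3, with a median log2 fold change of 0.23 without Van replicate 2.

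VanLip was compared with Van to ask what differs once the lipid is given after vancomycin. Hspa5, Hsp90b1 and Herpud1 fell, by 24.6%, 20.1% and 24.3% (DESeq2, adjusted p at or under 0.05). Over all genes, 9.86% were called and 5.28% were called lower. All 10 fold changes were below 0, with a median log2 of -0.27 against 0.01 over all genes, and 4 genes did not overlap, VanLip lower, against 14.4% of all genes. edgeR called Hspa5 and Herpud1, and limma on FPKM called 0 (5.07% and 2.64% of all genes), with 4 at an unadjusted p under 0.05 against 16.2% of all genes. Over genes with a mean FPKM of at least 1, limma called Hspa5 and Herpud1. The median of the 10 was -0.16 without VanLip replicate 1, with 1 gene above 0, and -0.19 without Van replicate 2, with 2 above 0, and DESeq2 called 5 of the 10 without VanLip replicate 3. The fragments of each VanLip library were also thinned to 20146290, the median of the Con and Van libraries after rounding of each gene (range before rounding 16151385 to 23018927). DESeq2 then called Hspa5, Hsp90b1 and Herpud1, while the inferred read length was not matched. The Van libraries enter both this comparison and that of Van with Con, so the values of the 2 are given side by side and not as separate evidence.

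VanLip was compared with Con to ask what remains after both treatments. Herpud1 fell by 19.8% and the other 9 genes did not pass the test (DESeq2), where 6.67% of all genes were called and 3.69% were called lower, so that the share of the 10 was near the background. The median log2 fold change of the 10 was 0.07 against 0.01 over all genes, and it moved between -0.00 without Con replicate 2 (5 genes above 0 and 5 below) and 0.14 without VanLip replicate 1, with 0.13 without Con replicate 1 and 0.04 without VanLip replicate 3. Herpud1 was also the 1 gene of the 10 without overlap, where 11.3% of all genes did not overlap with VanLip lower. edgeR and limma each called 0 (1.78% and 0.908% of all genes), with 1 gene at an unadjusted p under 0.05 against 17.8% and 14.2% of all genes. The count was 0 without Con replicate 1 and 0 without VanLip replicate 1. The share of all called genes that were higher depended on the library scaling, 44.7% with the size factors of DESeq2 and 56.8% with TMM, and with TMM Herpud1 was still called lower.

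**Figure D2:**
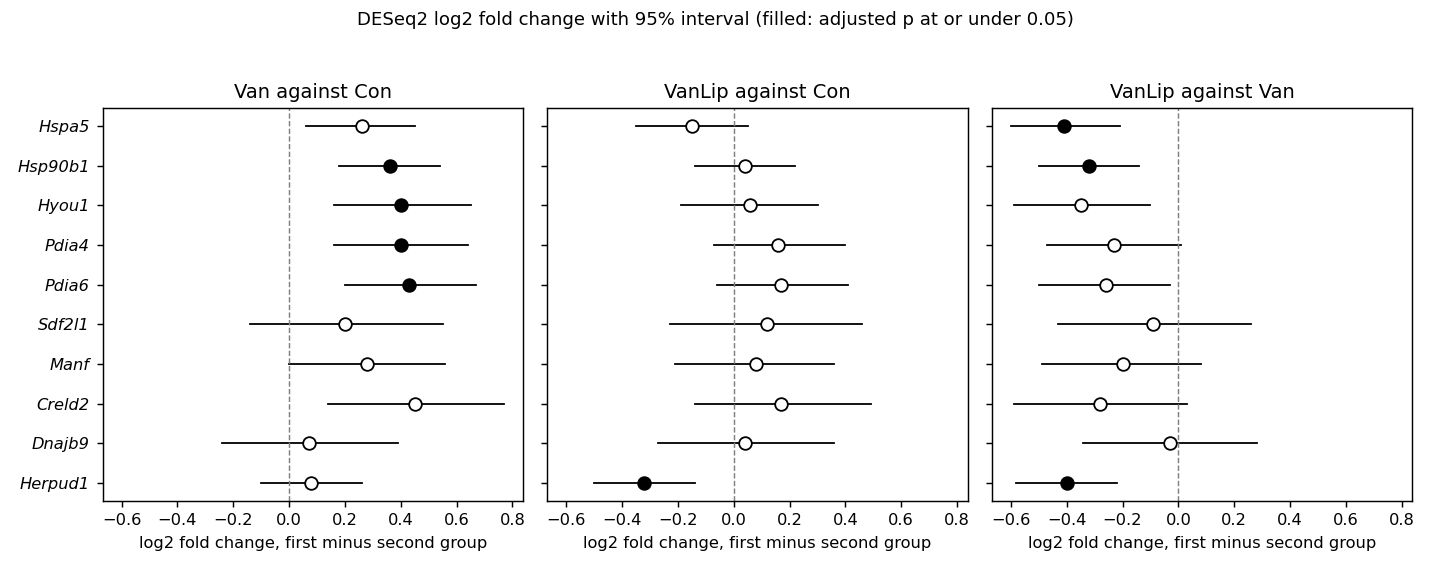
log2 fold change of the 10 genes (x axis) with its 95% interval for each comparison, from the DESeq2 fit over all genes (filled points: adjusted p at or under 0.05). All points of Van against Con lie at 0.07 to 0.45 and all points of VanLip against Van lie below 0, with Hspa5 lowest at -0.41.

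Among the folding chaperones, Hspa5 stood at 200.2, 166 and 168 FPKM in Con, at 203, 235 and 196 in Van and at 158, 160.1 and 168 in VanLip. The VanLip libraries lay below all Van libraries, while Con overlapped both. Its log2 fold change was -0.41 (SE 0.10, DESeq2 adjusted p 0.00148, edgeR 0.0369) for VanLip against Van, 0.26 (SE 0.10, adjusted p 0.142) for Van against Con and -0.15 (SE 0.10, adjusted p 0.446) for VanLip against Con. The fall against Van was called under 18 of 20 alternative settings. Without Con replicate 1, the highest Con library, Van against Con was called as well at 0.35.

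Hsp90b1 stood at 131, 118 and 134 FPKM in Con, 152, 184 and 159 in Van and 124, 126 and 145 in VanLip. Every Van library was above every library of the other groups, and Con and VanLip overlapped. The log2 fold change was 0.36 (SE 0.09, DESeq2 adjusted p 0.00560) for Van against Con and -0.32 (SE 0.09, adjusted p 0.00839) for VanLip against Van, and it was 0.04 (95% interval -0.14 to 0.22) for VanLip against Con. The rise was lost without Con replicate 2 or Van replicate 2, and the fall without Van replicate 2 or VanLip replicate 2. Hyou1, which encodes GRP170, the nucleotide exchange factor of BiP, stood at 24.0, 19.9 and 21.4 FPKM in Con, 25.8, 35.0 and 27.8 in Van and 20.4, 24.0 and 25.2 in VanLip. Again the Van libraries lay above all others, with the highest VanLip and lowest Van library close together. Hyou1 rose in Van by a log2 value of 0.40 (SE 0.12, DESeq2 adjusted p 0.0335), and VanLip against Van missed the threshold at -0.35 (SE 0.12, adjusted p 0.0536). The rise of Hyou1 was called under 11 of 20 alternative settings and was lost without Con replicate 2 or 3 or Van replicate 2 or 3.

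Of the protein disulfide isomerases, which form and rearrange disulfide bonds in secretory proteins, Pdia4 (ERp72) stood at 17.3, 17.2 and 17.0 FPKM in Con, 19.4, 25.6 and 23.6 in Van and 16.6, 19.7 and 22.2 in VanLip. The Con libraries were nearly equal and below all of Van, and VanLip overlapped both groups. The log2 fold change of Pdia4 was 0.40 (SE 0.12, DESeq2 adjusted p 0.0330) for Van against Con and -0.23 (95% interval -0.47 to 0.01) for VanLip against Van. Pdia6 (P5), which also limits IRE1 and PERK signalling, stood at 51.7, 46.2 and 52.5 FPKM in Con, 57.6, 76.3 and 69.5 in Van and 46.9, 58.2 and 62.1 in VanLip. Van lay above Con in all libraries and overlapped VanLip. Pdia6 had the largest called change of the 10 for Van against Con, a log2 fold change of 0.43 (SE 0.12, DESeq2 adjusted p 0.0124, edgeR 0.107), and -0.26 (SE 0.12, adjusted p 0.164) for VanLip against Van. Pdia4 and Pdia6 tracked each other most closely of all 45 pairs, with r = 0.98 over the 9 libraries and 0.96 after group means were removed. The call of Pdia4 in Van was lost in 5 of the fits that left out 1 library (Con replicate 1, 2 or 3 and Van replicate 2 or 3), and that of Pdia6 in 3 of them, when replicate 2 of Con or replicate 2 or 3 of Van was absent.

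Manf and Creld2 encode small ER proteins that are partly secreted under stress, the first a BiP-binding neurotrophic factor. Manf stood at 23.2, 18.1 and 18.7 FPKM in Con, 19.95, 35.6 and 23.3 in Van and 19.4, 22.0 and 22.0 in VanLip. Apart from Van replicate 2 the libraries of the 3 groups overlapped, and the log2 fold change of Van against Con was 0.28 (SE 0.14, DESeq2 adjusted p 0.346). Creld2 stood at 9.44, 9.21 and 12.3 FPKM in Con, 12.7, 16.3 and 13.7 in Van and 9.34, 12.4 and 13.5 in VanLip. Its Van libraries did not overlap Con, and Creld2 had the largest fold change of the 10, 0.45 (SE 0.16, DESeq2 adjusted p 0.0859). It was called for Van against Con under 5 of 20 alternative settings, among them the replicate number as a block and a fit of only the Con and Van libraries, at 0.46 in each.

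The BiP cofactors Sdf2l1, a partner of the J-protein ERdj3, and Dnajb9 (ERdj4), a J-protein that holds IRE1 in check, did not pass the test in any comparison. Sdf2l1 stood at 23.6, 21.8 and 33.4 FPKM in Con, 24.6, 35.8 and 30.8 in Van and 23.6, 31.0 and 31.7 in VanLip, with all groups overlapping and a log2 fold change of 0.20 (95% interval -0.14 to 0.55) for Van against Con. Dnajb9 stood at 41.5, 26.6 and 34.2 FPKM in Con, 35.3, 40.8 and 32.4 in Van and 41.0, 33.8 and 31.8 in VanLip. The highest and the lowest Dnajb9 library were both Con, and its log2 fold changes were 0.07 (95% interval -0.24 to 0.39), 0.04 (-0.27 to 0.36) and -0.03 (-0.34 to 0.28) for Van against Con, VanLip against Con and VanLip against Van. The intervals of both genes for Van against Con include both 0 and the median of the 10 genes, 0.32.

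Herpud1, a membrane scaffold of ER-associated degradation that binds the ubiquitin ligase Syvn1 (HRD1), stood at 73.5, 60.2 and 64.4 FPKM in Con, 69.2, 74.6 and 67.1 in Van and 47.6, 54.8 and 56.0 in VanLip. Con and Van overlapped and VanLip lay below both. The log2 fold change was -0.40 (SE 0.09, DESeq2 adjusted p 5.09e-04, edgeR 0.0258) for VanLip against Van, -0.32 (SE 0.09, DESeq2 adjusted p 0.0146, edgeR 0.0951) for VanLip against Con and 0.08 (SE 0.09, adjusted p 0.806) for Van against Con. VanLip against Van was called under 18 of 20 alternative settings and VanLip against Con under 12 of 20. The call against Con was lost when Con replicate 1 (-0.24) or VanLip replicate 1 (-0.26) was left out, with the replicate block (adjusted p 0.0513), with only the 2 groups in the fit (adjusted p 0.0566), with edgeR and in all 3 limma fits.

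Most of the 10 genes varied together from library to library. The correlation between 2 of them over the 9 libraries ranged from 0.02 to 0.98 with a median of 0.65 over 45 pairs, and after group means were removed it ranged from -0.19 to 0.96 with a median of 0.66 and 41 pairs above 0. The pairs below 0 all held Dnajb9, with Pdia4, Pdia6, Sdf2l1 or Creld2. All pairs share the libraries and their scaling, so these are descriptions, and pairs of other genes were not computed for comparison. Their summed level was 595.1, 503.3 and 556.5 FPKM in Con, 619.3, 758.9 and 643.2 in Van and 507.6, 541.8 and 577.5 in VanLip. Every Van library was above every other library in this sum. On quantile-normalized values, Van replicate 2 was the highest of the 9 libraries for 8 of the 10 genes, the exceptions being Dnajb9 and Herpud1, and Con replicate 2 was the lowest for 6.

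**Figure D3:**
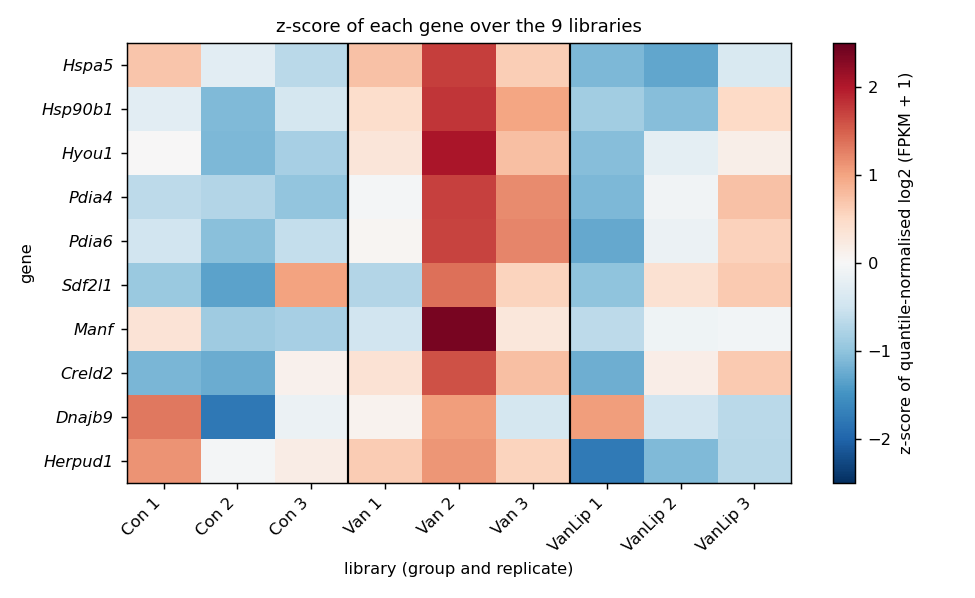
z-score of quantile-normalized log2 (FPKM + 1) of each gene (rows) in each library (columns, grouped as Con, Van and VanLip). Van replicate 2 has a mean z-score of 1.64 over the 10 genes, and Con replicate 2, at -0.96, has the lowest.

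The genes outside the set most like the mean z-score of the 10, among 7794 genes with a mean FPKM of at least 5, were Cd86 (r = 0.962 over 9 libraries), Cct3 (0.940), Ppan (0.932), Prosc (0.920) and Siva1 (0.911). After group means were removed Cd86 and Cct3 kept r = 0.92 and 0.93. Cd86, the costimulatory ligand of CD28, stood at 31.6 FPKM in Con, 38.6 in Van and 31.7 in VanLip on average. The genes most like Hspa5 alone were Panx1 (0.948), March6 (0.940), Dennd4a (0.934), Sav1 (0.934) and Vps13d (0.931). Each list holds the highest of 7794 correlations over 9 libraries, and no p was computed. Van replicate 2 had the highest mean z-score of the 10 genes, 1.64.

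The wider pathway held 90 further genes, of which 89 had an adjusted p, and few passed the test. Van against Con called 4 of 89 (4.49%, near the 4.34% of all genes), VanLip against Con 2 (2.25%, against 6.67% of all genes) and VanLip against Van 6 (6.74%, against 9.86%), by DESeq2. edgeR called 0, 0 and 3 of them (1.21%, 1.78% and 5.07% of all genes), with 20, 19 and 20 at an unadjusted p under 0.05, where 14.7%, 17.8% and 21.0% of all genes were. Of the 12 sensors and transducers none was called in any comparison by DESeq2, edgeR or limma, with 4, 3 and 4 at an unadjusted p under 0.05 in DESeq2 (14.9%, 18.6% and 21.0% of all genes). Xbp1 averaged 124 FPKM in Con, 133 in Van and 118 in VanLip, with a log2 fold change of 0.11 (SE 0.08, DESeq2 adjusted p 0.601) for Van against Con, and gene-level values do not separate its spliced form. Atf6 had -0.23 (SE 0.10, adjusted p 0.173), Ern1, which encodes IRE1, -0.45 (SE 0.27, adjusted p 0.465) and Eif2ak3, which encodes PERK, 0.01 (SE 0.06, adjusted p 0.978). Atf4 and Ddit3, at 0.01 and 0.03, had adjusted p of 0.984 and 0.983.

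The 27 other ER chaperones and folding enzymes had fold changes above 0 in 22 for Van against Con, with a median log2 of 0.13, where 9032 of 18516 genes in all were above 0 with a median of -0.01. DESeq2 called 2 of the 27 (7.41%, against 4.34% of all genes), and edgeR and limma called 0. At an unadjusted p under 0.05, edgeR had 7 and limma 5, where 14.7% and 11.6% of all genes were. P4hb, the founding disulfide isomerase (0.24, SE 0.08, DESeq2 adjusted p 0.0461), and P4ha1, a collagen prolyl hydroxylase (0.41, SE 0.10, adjusted p 0.00252), rose. P4ha1 stood at 20.4, 19.2 and 21.4 FPKM in Con, 29.9, 29.2 and 26.2 in Van and 19.1, 22.6 and 23.5 in VanLip, and fell in VanLip against Van by 0.51 on the log2 scale (adjusted p 1.20e-05). The lectin chaperones Calr and Canx had log2 values of 0.31 (SE 0.12, adjusted p 0.160) and 0.22 (SE 0.08, adjusted p 0.0868), each with no overlap between Van and Con. Pdia3, Dnajb11 and Dnajc3 lay at 0.17, 0.15 and 0.17 with adjusted p of 0.336 to 0.416. Among 19 genes of ER-associated degradation, DESeq2 called 2 in Van against Con and 3 in VanLip against Van (4.34% and 9.86% of all genes). edgeR called 0 and 2 of them and limma 1 and 1. Syvn1, the ubiquitin ligase, rose in Van (0.36, adjusted p 0.0178) and fell in VanLip against Van (-0.40, adjusted p 0.00234), whereas Erlec1, an ER lectin, had the opposite signs (-0.33, adjusted p 0.00435, and 0.30, adjusted p 0.00366). Edem3 fell in VanLip against Van (-0.22, adjusted p 0.0324), and Sel1l and Edem1 had 0.13 and 0.19 in Van against Con with adjusted p of 0.298 and 0.248. Of 24 translocation and glycosylation genes, Spcs1, a signal peptidase subunit, rose in VanLip against each other group (0.20 in both, adjusted p 0.0422 and 0.0344). Spcs1 was the 1 of 24 called by DESeq2 in each (4.17%, against 6.67% and 9.86% of all genes). edgeR called 0 of the 24 in either and limma 0 and 1. Of 7 PERK outputs, Sesn2 fell in VanLip against Con and against Van (-0.36 and -0.32, adjusted p 0.0134 and 0.0258). Sesn2 was the 1 of 7 called by DESeq2 in each (14.3%, against 6.67% and 9.86% of all genes), and edgeR and limma called 0.

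Among the genes outside the 10 that hold an ERSE, 16 were tested for Van against Con and 1 was called, Syvn1, which is 6.25% against 5.09% of all genes with a promoter window. Their median log2 fold change was 0.14 against 0.01. Within the 10, Hsp90b1 and Pdia6 with the element rose in Van and Hspa5 and Creld2 with it were not called, and Pdia4 rose with no match in its window.

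**Figure D4:**
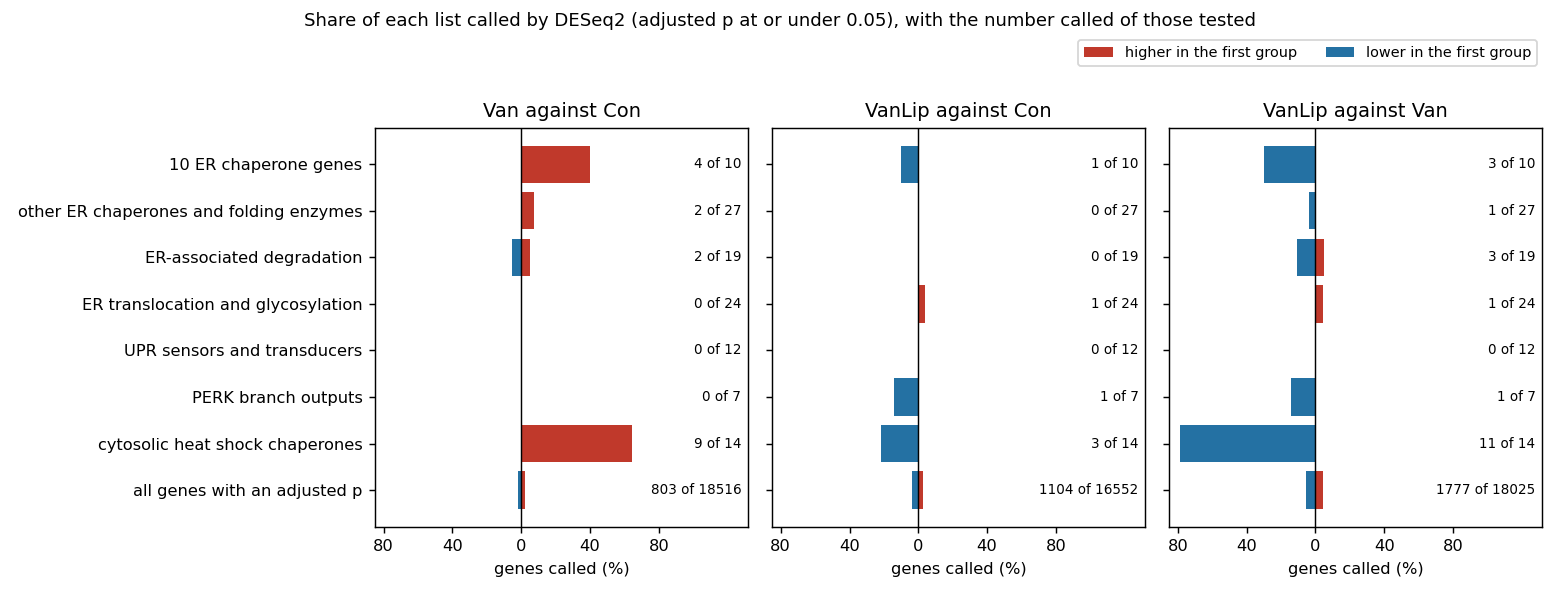
Percentage of genes called by DESeq2 in each list (x axis, higher to the right and lower to the left) for the 3 comparisons, with the number called of those tested. The 10 ER chaperone genes reach 4 of 10 in Van against Con, where the sensors have 0 of 12 and the cytosolic heat shock chaperones 9 of 14.

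The cytosolic and mitochondrial heat shock chaperones, which answer mainly to HSF1, changed as well. Of 14, DESeq2 called 9 higher in Van against Con, with a median log2 of 0.47, where 4.34% of all genes were called, and 11 lower in VanLip against Van, with a median of -0.75, where 9.86% were. edgeR called 7 and 10 of the 14 and limma 4 and 8, and the difference from the ER genes was not tested. Hsph1, an Hsp110, rose from 8.99 ± 0.978 FPKM in Con to 31.0 ± 3.11 in Van (SD, n = 3) and stood at 6.43 ± 1.59 in VanLip, a log2 fold change of 1.75 (SE 0.15, DESeq2 adjusted p 1.76e-26, edgeR 0.00301). Dnaja1 (0.67), Hspa8 (0.60) and Hsp90aa1 (0.63) rose as well in Van and were called by edgeR. Hsp90aa1 and Hsp90b1, the cytosolic and ER members of 1 family, had log2 fold changes of 0.63 (SE 0.08) and 0.36 (SE 0.09). In VanLip against Con, Hspa1a, Hspa1b and Dnaja1 fell (-3.46, -3.79 and -0.44), and Hspa1a and Hspa1b, near-identical genes between which reads can be shared, varied between 24.9 and 83.3 FPKM within Con.

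Markers of other cells moved between the libraries too. The 8 red pulp macrophage markers summed to 1007 to 1217 FPKM in Con, 1251 to 1576 in Van and 982 to 1330 in VanLip, with Van replicate 2 highest in this sum as in that of the chaperone genes. DESeq2 called 1 of the 8, Vcam1, higher in Van than in Con (0.46, adjusted p 0.0106) and lower in VanLip than in Van (-0.50, adjusted p 0.00176), where 4.34% and 9.86% of all genes were called. edgeR called 0 and 1 of the 8 in these comparisons, and limma 0 and 0. Of the 8, 7 had fold changes above 0 in Van against Con, with a median log2 of 0.25, and 1 in VanLip against Van, with a median of -0.20, beside medians of 0.32 and -0.27 for the chaperone genes. Spic, the transcription factor that defines these cells, stood at 42.96 to 45.5 FPKM in Con, 41.9 to 57.2 in Van and 33.4 to 57.6 in VanLip and was not called. The 8 neutrophil markers summed to 5.91 to 13.7 FPKM in Con, 2.46, 11.9 and 3.71 in the 3 Van libraries and 3.63 to 5.79 in VanLip, so that Van replicate 2 stood apart from the other Van libraries here as well. DESeq2 called Retnlg lower in Van against Con and Ngp lower in VanLip against Con (4.34% and 6.67% of all genes called). edgeR and limma called 0 of the 8 in either. After group means were removed, the correlation with the 10 chaperone genes was 0.90 for the neutrophil markers and 0.68 for the red pulp macrophage markers. The other cell marker lists lay between -0.42 (monocyte) and 0.53 (platelet).

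**Figure D5:**
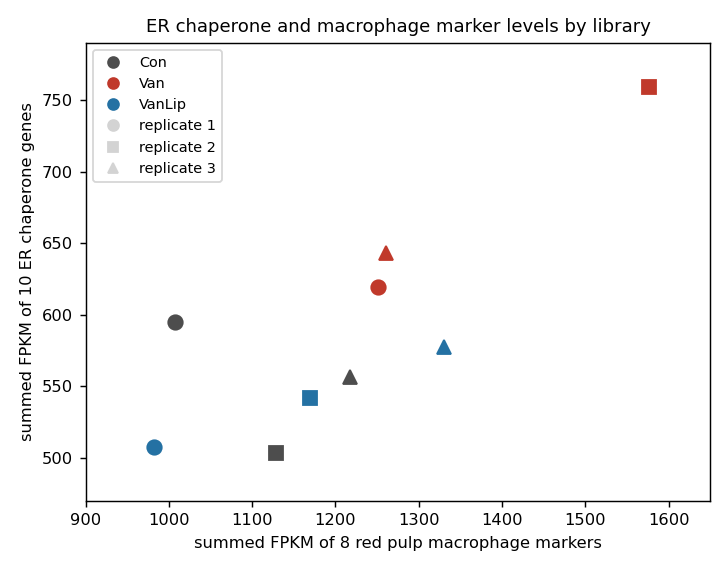
Summed FPKM of the 10 ER chaperone genes (y axis) against summed FPKM of 8 red pulp macrophage markers (x axis), 1 point per library with color giving the group and shape the replicate (neither axis starts at 0). Van replicate 2 is highest on both axes, at 758.9 and 1576 FPKM.

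The 8 plasma cell markers, from cells that are rich in ER chaperones, summed to 97.0 to 121 FPKM in Con, 97.4 to 140.1 in Van and 142 to 284 in VanLip. Their receptor Tnfrsf17 was under 1 FPKM in every library, whereas Jchain stood at 28.5 to 54.3 and Igha at 28.1 to 199 FPKM. DESeq2 called 2 of the 8 lower in Van against Con (Sdc1, -0.71, and Tnfrsf13b, -0.54). In VanLip against Con, Igha was higher (1.75) and Prdm1 lower (-0.92), and in VanLip against Van, Sdc1 (0.70) and Tnfrsf13b (0.84) were higher and Prdm1 lower (-0.92). These 2, 2 and 3 calls of 8 stood beside 4.34%, 6.67% and 9.86% of all genes, and edgeR called 1, 2 and 2 and limma 0, 0 and 1. Erythroid markers summed to 99.7 to 202.7 FPKM in Con, 343 to 772 in Van and 279 to 1163 in VanLip. Against Con, DESeq2 called 5 of the 7 higher in Van and all 7 higher in VanLip (4.34% and 6.67% of all genes called), while edgeR called 0 and 5 and limma 0 and 0. Of 10 monocyte markers, DESeq2 called 1 in Van against Con (4.34% of all genes called), Ccr2, which was lower (-0.83), with 4 of the 10 above 0 and a median log2 of -0.16. In VanLip against Van it called 3 higher, Ly6c2 (0.39), Ccr2 (1.04) and Cx3cr1 (0.43), where 9.86% of all genes were called. Of 8 conventional and 8 plasmacytoid dendritic cell markers, Xcr1 (-0.85), Clec9a (-1.12) and Siglech (-0.89) were lower in Van against Con, and Clec9a (0.67) and Siglech (0.85) were higher in VanLip against Van. Over all genes, 4.34% and 9.86% were called. Of the same 2 lists, Flt3 and Cox6a2 went the other way, with every Van library above every Con library, and were not called. Xcr1 and Cd209a (both -0.73) were lower in VanLip against Con, where 6.67% of all genes were called. Ighd, 1 of 8 B cell markers, was lower in Van against Con (-1.49), where 4.34% of all genes were called. In Van against Con, edgeR called 1 of the conventional dendritic cell markers and, like limma, none of the monocyte, plasmacytoid or B cell markers, and limma called none of the conventional ones either. In VanLip against Van, edgeR called 2 monocyte markers and limma 1, and neither called a dendritic cell marker there or in VanLip against Con. The part of any of these cells in the chaperone results was not tested.

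On GRCm38, with GENCODE M21 coordinates, several of the genes share their span with another gene. Hspa5 (ENSMUSG00000026864) is at chr2:34771970-34777547 on the plus strand and Herpud1 (ENSMUSG00000031770) at chr8:94386438-94395377 on the plus strand. Pdia6 (ENSMUSG00000020571) is at chr12:17266545-17284770 on the plus strand and Pdia4 (ENSMUSG00000025823) at chr6:47796141-47813430 on the minus strand. Hyou1 (ENSMUSG00000032115) is at chr9:44379490-44392369 and Creld2 (ENSMUSG00000023272) at chr15:88819646-88826683, both on the plus strand. Sdf2l1 (ENSMUSG00000022769) is at chr16:17130138-17132383 and Dnajb9 (ENSMUSG00000014905) at chr12:44205559-44210326, both on the minus strand. Hsp90b1 (ENSMUSG00000020048) at chr10:86690209-86705509 on the minus strand overlaps Gm15344 and Gm25745 on its own strand and 1810014B01Rik on the other. Manf (ENSMUSG00000032575) at chr9:106838312-106891979 on the minus strand overlaps Rbm15b on its own strand and Dcaf1 on the other. It overlaps Gm37612 and 4930524O07Rik on the other strand as well. Pdia6 overlaps Atp6v1c2, Herpud1 overlaps Gm15890 and Dnajb9 overlaps Mir5627 on the opposite strand, and Pdia4 overlaps Mir704 on its own. The library kit keeps strand, but whether the quantification used it is not given in the sources used here, so values of overlapping genes are uncertain to that extent.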

How the data were processed

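Messenger RNA of splenic monocytes was sequenced from 9 mice (3 per group) with a stranded poly(A) kit. Per the labels, the authors aligned reads to GRCm38 with HISAT2 2.2.1, used SAMtools 1.9 and StringTie 2.1.3, and deposited a table of gene FPKM values. A second table deposited by the authors holds expected counts, made by tximport from StringTie output and not normalized. Groups and replicate numbers came from the sample titles. The annotation release is not given in the sources used here, and 99.0% of the 26108 genes with a value matched GENCODE M21.

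After rounding of the expected counts, the Wald test of DESeq2 1.42.0 (R 4.3.3) was applied with its default size factors to the 9 libraries together, with treatment group as the single term. This was run on 25441 genes, and p-values were two-sided and adjusted by the Benjamini-Hochberg method over all genes with a p that passed independent filtering. The threshold for a call was an adjusted p of 0.05. Levels between genes were compared in FPKM only. Log2 values of FPKM used a pseudocount of 1.

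Alternatives were edgeR 4.0.16 (quasi-likelihood test), TMM library sizes, removal of genes with fewer than 3 libraries at 10 counts, separate fits for each pair of groups, the replicate number as a block, no independent filtering, conversion of counts to fragments (16151385 to 23018927 in Con and Van, 42625868 to 46180176 in VanLip), thinning of the VanLip fragments, limma 3.58.1 on quantile-normalized log2 FPKM (pseudocount 1, pseudocount 0.1, or only genes averaging 1 FPKM or more), and the omission of each library by turns. tximport assumes reads of 75 bases unless told otherwise, so 1 read counted 1.33 in Con and Van and 2.00 in VanLip.

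Libraries with the same replicate number did not deviate together (r between -0.06 and 0.12), so numbers were not taken to pair mice. The scripts were tested on simulated data. The members, the gene lists and the rule for named genes were chosen with earlier results of these data known. All 10 genes, the main sensors and folding enzymes, and up to 4 further called genes per list and comparison were named, with the 5 genes most like the mean of the 10 and the 5 most like Hspa5.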

Additional observations from a re-analysis of the deposited data

How the results depend on the processing

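The direction of the called chaperone changes was the same under all alternatives run, but most calls depended on the test and on single libraries. For Van against Con, DESeq2 called 4 of the 10 genes, edgeR 0, and limma 0 with either pseudocount or the FPKM filter; leaving out 1 library gave 0 to 5. For VanLip against Con, 1 gene was called and 0 with edgeR, each limma fit, only the 2 groups compared or the replicate block (leave-one-out 0 to 1). For VanLip against Van, 3 were called and 0 with limma at pseudocounts of 1 and 0.1, and 2 (Hspa5 and Herpud1) with limma and the FPKM filter (leave-one-out 2 to 5, 5 without VanLip replicate 3). The cause was not tested.

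Of the other pathway genes, Van against Con had 4 called, 8 with only the 2 groups compared, 0 with edgeR, and 1, 0 and 0 in the limma fits with pseudocounts of 1 and 0.1 and the FPKM filter (leave-one-out 1 to 6, with 2 when Con replicate 2, Con replicate 3 or Van replicate 3 was absent and 1 when Van replicate 2 was). VanLip against Con had 2, with 7 under TMM, 5 with the low-count filter, 1 without independent filtering, with only the 2 groups compared, with the block or as fragments, and 0 with edgeR and each limma fit (leave-one-out 0 to 4, with 0 when Con or VanLip replicate 2 was absent, 1 when Van replicate 2 was and 4 when Con or VanLip replicate 1 was). VanLip against Van had 6, with 3 in edgeR and 2, 1 and 3 in limma (leave-one-out 3 to 8, with 3 when Van replicate 1 or 2 was absent). The replicate block gave 4, 0 and 3 called chaperone genes for Van against Con, VanLip against Con and VanLip against Van; in the first, Creld2 was called and Hyou1 was not.

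Values that changed sign were all uncalled and all came from leaving out 1 library. Dnajb9 ranged from -0.08 to 0.25 in Van against Con (negative when Con or Van replicate 2 was absent, -0.08 and -0.01), from -0.10 to 0.22 in VanLip against Con (-0.10 and -0.08 when Con replicate 2 or VanLip replicate 1 was absent) and from -0.16 to 0.05 in VanLip against Van (0.05, 0.01 and 0.04 when Van replicate 2, VanLip replicate 2 or VanLip replicate 3 was absent). Sdf2l1 ranged from -0.21 to 0.03 in VanLip against Van, positive when Van replicate 2 or VanLip replicate 1 was absent. For VanLip relative to Con, Hsp90b1 ranged from -0.04 to 0.08 and Hyou1 from -0.02 to 0.15, negative when Con replicate 2 (-0.01 for both) or VanLip replicate 3 was absent. With TMM, 55.6% of all called genes were higher in VanLip than in Van against 46.5%. The precision with 3 libraries a group is that of the intervals given.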
